A study of Mus musculus with 32 samples.

Results

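Cultures of mouse cortical neurons that received no oligonucleotide were sequenced at 2 times, and the comparison described here is that of the 4 untreated libraries labelled 5 d with the 4 untreated libraries labelled 6 h, which are 8 of the 32 libraries of the study. The members were taken from the condition and time in the deposited names, and every gene of the count table entered the comparison. The other 24 libraries, 12 per time, came from cultures given an oligoribonucleotide, which was Mut.oligo, a mutated let-7b sequence that serves as control, or the microRNA miR-124-5p or, in other cultures, miR-92a-1-5p, with 4 libraries of each per time, and were used only as a second set of cultures that differ by the same time. All cultures were prepared from the cerebral cortex of late C57BL/6 embryos and kept in a serum-free medium with B27 supplement. Per the methods, the meninges and surface vessels were dissected away before the cells were dissociated. The times are those of the parallel exposed cultures, counted from the start of exposure, while the day in vitro at that start was not given for the sequenced cultures.

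Each of the 8 untreated libraries carried an experiment batch label of its own. The 4 batches at 6 h were dated 2021 and the 4 batches at 5 d were dated 2022, and 0 batches held both times. Time in culture and batch year therefore cannot be told apart in any value given here, and no value within a batch can be computed. The same holds for the 24 exposed libraries, whose 6 h and 5 d batches also did not overlap. The labels call the samples biological replicates, and p-values measure the spread between these samples.

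Cortical neurons of the late embryo are young postmitotic cells that extend axons, lower the genes of their migration and growth phase in culture, and raise receptors, channels, and synaptic proteins while they form a network. Serum-free medium limits the division of other cells, but precursors that were plated together with the neurons can still give rise to astrocytes, which take up glutamate, buffer potassium, and supply lipids. The integrated stress response, by which cells that lack amino acids or fold proteins poorly translate the factor ATF4 and raise amino acid transporters and synthetic enzymes, is another program that changes in cultured neurons.

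The total count was between 30147274 and 37732234 at 6 h and between 49720829 and 60518243 at 5 d. A level of 3 counts corresponds to at most 0.0995 CPM at 6 h (CPM are the counts of a gene scaled to the library total, per 1000000) and to at most 0.0603 CPM at 5 d, a floor that covers counting error only. Spearman's rho between libraries of the same time was 0.989 to 0.995 over the genes tested, and between libraries of different times it was 0.961 to 0.971, which are descriptions across genes of libraries that share a tissue and a protocol. The biological coefficient of variation was 9.91% at 6 h and 15.03% at 5 d, so that the 5 d libraries differed more among themselves.

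The libraries of the 2 times differed in how they treated genes that share a locus with a gene on the opposite strand. Med10, a subunit of the Mediator complex with 92.8% of its exon bases overlapped by exons of an opposite-strand gene, had 0 counts in all 4 libraries at 6 h and between 37.3 and 38.9 CPM at 5 d. Ilk, which encodes integrin-linked kinase and has 89.7% of its exon bases overlapped, was at 0.0995, 0.13, 0.0603, and 0.106 CPM at 6 h and at 83.2, 80.7, 86.5, and 82.7 CPM at 5 d. Ajm1 rose from at most 0.162 CPM to at least 44.3 CPM. In the other direction, mt-Nd6, which is transcribed from the mitochondrial strand opposite to that of the other mitochondrial mRNAs, was at 829 to 941 CPM at 6 h and at 10.2 to 13.6 CPM at 5 d. Klhl34 and Proz, which have an opposite-strand gene within 5 kb, were at 10.7 to 12.4 CPM at 6 h and at most at 0.0504 CPM at 5 d. Mog, a myelin gene of mature oligodendrocytes with an opposite-strand gene within 5 kb, was at 6.0, 4.77, 5.79, and 4.48 CPM at 6 h and at 0.0168, 0.0, 0.0, and 0.0 CPM at 5 d.

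This difference grew with the overlap. The median log2 fold change of 5 d over 6 h was -0.0295 for the 12938 genes whose exons overlap no exon of the opposite strand, 0.45 for the 691 genes with 25 to 50% of their exon bases overlapped, 1.17 for the 177 genes with 50 to 75%, 2.85 for the 70 genes with 75 to 99%, and 5.95 for the 47 genes with over 99%. A small overlap did not bound the change, since Gnas, which encodes the stimulatory G protein alpha subunit and is overlapped over 22.0% of its exon bases, was at 47.1 to 52.5 CPM at 6 h and at 1190 to 1310 CPM at 5 d. The exposed libraries split in the same way, with log2 fold changes of 9.14 for Ilk, 4.76 for Gnas, and -5.83 for mt-Nd6. A count that ignores strand discards reads on exons of genes on both strands and credits reads of an opposite-strand gene to its neighbour, whereas a count on 1 strand does neither. The methods give a stranded kit and a count on 1 strand for all libraries. Whether the libraries, the count, or the samples differed between the times cannot be told apart from the deposited counts, and the part of strand in the results below was not tested. Therefore, each gene given below is marked (o) where an exon of an opposite-strand gene overlaps its exons and (n) where an opposite-strand gene surrounds it, lies within it, or lies within 5 kb, and an unmarked gene has no such neighbour. The lists are also counted without their overlapped members. That count keeps members marked (n), which can differ as Klhl34 (n) and Mog (n) do, so it does not remove the part of strand.

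**Figure D1:**
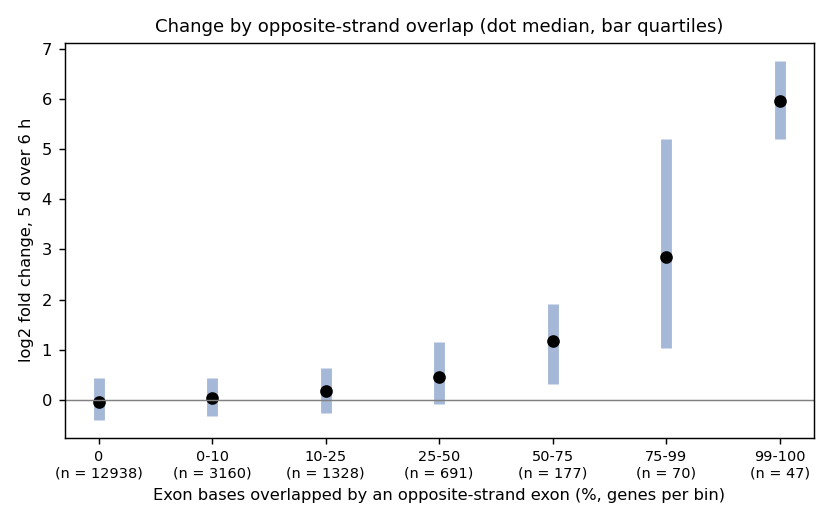
Log2 fold change of 5 d over 6 h in the untreated libraries (y axis) for genes grouped by the share of their exon bases that exons of an opposite-strand gene overlap (x axis, with the number of genes); dots are medians and bars span the quartiles. The median rises from -0.0295 without overlap to 5.95 above 99% overlap.

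A gene was tested if 3 or more of the 8 libraries held 5 or more counts of it, and it was called if its log2 fold change went beyond 0.5 in either direction with a Benjamini-Hochberg adjusted p below 0.05 in the quasi-likelihood test of edgeR. Of 18461 genes tested, 3558 were called higher at 5 d and 2661 lower. These are 19.3% and 14.4% of the genes tested, and 33.7% together, against which the counts of each list below have to be read. The lists and their members were chosen with earlier results of these data known, so their counts are descriptions only. Of the 5473 genes with an opposite-strand exon overlap, 25.4% were higher and 12.8% were lower. Of the 12988 genes without one, 50 of which are not in the annotation used here, 2166 (16.7%) were higher and 1961 (15.1%) were lower, and of the 6404 genes with no opposite-strand neighbour, 1162 (18.1%) were higher and 900 (14.1%) were lower. The excess of higher genes was thus smaller without the overlapped genes. Of the 534 genes that differed by more than 8-fold, 265 were overlapped. The 10 higher genes with the smallest p and the 10 with the largest fold were all overlapped, as were 7 and 4 of the corresponding 10 lower genes, and every other gene among these had an opposite-strand neighbour.

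Since these genes share loci with others, the genes with the smallest p among protein-coding genes without an opposite-strand neighbour were named in addition, a choice made after values were seen. The first of the higher ones was Wfs1, which encodes the endoplasmic reticulum membrane protein wolframin. It was at 20.6, 21.4, 22.2, and 26.3 CPM at 6 h and at 90.6, 85.8, 79.8, and 84.5 CPM at 5 d, a log2 fold change of 1.89 with a standard error of 0.086. Sirpa, a receptor for CD47 that neurons and phagocytes carry, had a log2 fold change of 1.56, Ccn3, a secreted matrix protein, of 2.73, and Rgs14, a regulator of G protein signalling, of 3.91. Among the lower ones, Insm1, a zinc finger factor of neurogenic precursors, was at 38.9, 47.7, 42.0, and 42.0 CPM at 6 h and at 10.3, 8.95, 9.83, and 7.7 CPM at 5 d, a log2 fold change of -2.24 with a standard error of 0.0903. Plekhg2, a guanine nucleotide exchange factor, Hunk, a kinase, and Phf21b fell with log2 fold changes of -2.04, -1.93, and -2.23. Trhr, the receptor for thyrotropin-releasing hormone, was taken from the genes with the largest fold instead, and rose from 0.862 to 2.09 CPM at 6 h to 13.2 to 22.2 CPM at 5 d. The rule that named these 9 genes required that the libraries of the 2 times do not overlap. This held for 9208 of the 18461 genes tested.

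**Figure D2:**
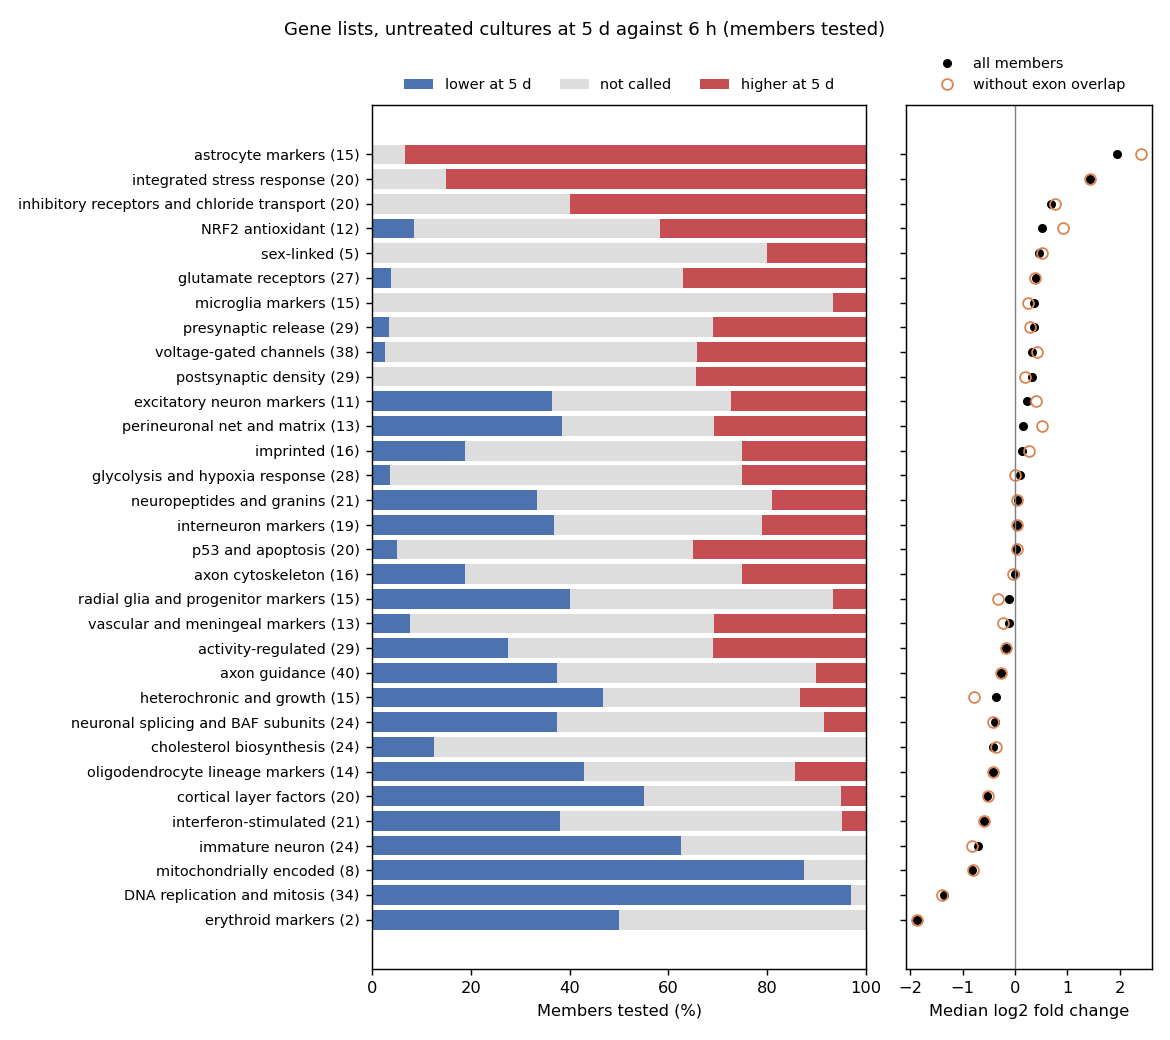
Share of the tested members of each gene list that were higher (red), lower (blue), or not called (grey) at 5 d in untreated cultures (left, %), and the median log2 fold change of the list over all tested members (black) and over those without an opposite-strand exon overlap (open circles, right), with lists ordered by the former. Astrocyte and integrated stress response genes are at the top, with 14 of 15 and 17 of 20 members higher, and DNA replication and mitosis genes near the bottom, with 33 of 34 lower.

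Astrocyte markers rose most of all lists. Of 15 markers, 14 were higher at 5 d and 0 were lower, with a median log2 fold change of 1.95, against 0.0202 over all genes. Of the 11 markers without an opposite-strand exon overlap, 10 were higher, with a median of 2.41, and of the 7 with no opposite-strand neighbour, 6 were higher. Gfap (n), the intermediate filament of astrocytes, was at 7.89, 18.6, 7.42, and 36.1 CPM at 6 h and at 511, 52.2, 253, and 114 CPM at 5 d. All 5 d libraries lay above all 6 h libraries, but those of 5 d differed by almost an order of magnitude among themselves, and the log2 fold change was 3.69 with a standard error of 0.718. Aqp4, the water channel of astrocyte endfeet, was at 7.7, 15.7, 13.9, and 38.6 CPM at 6 h and at 251, 97.8, 229, and 118 CPM at 5 d. Replicates 1 and 3 of 5 d held the highest levels of both genes.

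The glutamate transporters showed smaller and more even changes. Slc1a3, or GLAST, was at 180, 293, 237, and 312 CPM at 6 h and at 936, 687, 1150, and 750 CPM at 5 d, a log2 fold change of 1.75 (SE 0.174, edgeR adjusted p = 1.98e-05). Slc1a2 (o), or GLT-1, had a log2 fold change of 2.15 (SE 0.118). Glul (o), which encodes glutamine synthetase, had a log2 fold change of 1.0 (SE 0.101). The lipid carrier Apoe rose from 95.4 to 250 CPM to 577 to 1200 CPM, and Gja1, the gap junction protein connexin 43, from 24.1 to 47.3 CPM to 129 to 383 CPM. The calcium-binding S100b (n) and the secreted synaptogenic Sparcl1 (n) had log2 fold changes of 2.45 and 2.41. Aldoc, an aldolase of astrocytes, had one of 1.95. Gjb6, which encodes connexin 30, was the marker that was not called, at 0.0905 to 0.239 CPM at 6 h and at 0.0165 to 0.353 CPM at 5 d. In bulk libraries, more cells of a type and more RNA of its genes per cell cannot be told apart. The summed level of the 15 markers was 924.4, 1384, 1163, and 1594 CPM at 6 h and 5937, 3781, 6243, and 4082 CPM at 5 d.

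Markers of other cell types moved less by the median of each list. Of 15 microglia markers, 1 was higher and 0 were lower, and of the 11 without an overlap, 0 were higher or lower. Leaving out 1 library gave 1 to 4 higher markers, 4 without replicate 2 and 3 without replicate 4 of 5 d and 2 without replicate 3 or 4 of 6 h, and 1 lower marker without replicate 1 of 5 d. Cx3cr1 (o), the fractalkine receptor, was at 0.519 to 1.16 CPM at 6 h and at 0.876 to 2.66 CPM at 5 d. The summed microglia markers were at 27.97 to 43.73 CPM at 6 h and at 41.18 to 70.22 CPM at 5 d. Of 14 oligodendrocyte lineage markers, 2 were higher and 6 were lower, and of the 10 without an overlap, 1 was higher and 4 were lower. Of the 3 with no opposite-strand neighbour, 1 was higher and 0 were lower, so that every lower marker had such a neighbour. Without replicate 4 of 6 h, 4 of the 14 were lower. Sox10 (n), a factor of the lineage, and Pdgfra (o), the growth factor receptor of its precursors, had log2 fold changes of -1.39 and -1.08, while Cnp (o), a myelin enzyme, had one of 0.8. Bcas1 (o), a marker of new oligodendrocytes, had a log2 fold change of -2.09. Mog (n), described above among the genes that share a locus, was also counted as lower, with a log2 fold change of -9.51. Of the 13 vascular and meningeal markers tested, 4 were higher and 1 was lower, and of the 12 without an overlap, 3 were higher and 1 was lower. The count of lower markers was 4 without replicate 3 of 6 h and 3 without replicate 1 of 5 d. Dcn, a proteoglycan of meningeal fibroblasts, and Pecam1 (n), an endothelial adhesion molecule, had log2 fold changes of 1.5 and 1.41, and Rgs5, a pericyte gene, had one of -1.51. Tagln (o), a smooth muscle gene with 67.9% of its exon bases overlapped, was at 5.7 CPM in replicate 1 of 5 d and at 1.21 to 1.82 CPM in the others. Their summed levels overlapped between the times, at 35.12 to 134.5 CPM and 65.49 to 119.4 CPM. Of 6 erythroid markers, 2 were tested and 1 was lower, neither of them overlapped, and their summed level was at most 2.123 CPM in any library.

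Markers of neurons were present in all 8 libraries, and their summed level was 3891 to 4207 CPM at 6 h and 4038 to 4866 CPM at 5 d for the 11 excitatory markers. Of these, 3 were higher and 4 were lower, and of the 9 without an overlap, 3 and 3. The higher ones were Camk2a, Slc17a7 (n), and Syt1, and the lower ones included the transcription factors Neurod2, Neurod6 (n), and Tbr1, so that the list split between synaptic genes and factors of early identity. Of 19 interneuron markers, 4 were higher and 7 were lower, and of the 15 without an overlap, 3 and 6. The homeobox factors Dlx1 (o), Dlx2, and Dlx5, which specify interneurons, fell with log2 fold changes of -1.15, -1.23, and -1.24, whereas Gad1 (n), which makes GABA, was at 228 to 266 CPM at 6 h and at 271 to 418 CPM at 5 d, with a log2 fold change of 0.35 that did not pass the fold threshold. Calb2, the calcium-binding protein calretinin, rose from 39.1, 33.5, 34.4, and 38.1 CPM to 105, 86.2, 104, and 81.9 CPM, a log2 fold change of 1.35. Reln (o), a secreted guidance protein, had a log2 fold change of 0.72 with overlapping groups. Pvalb, which marks fast-spiking interneurons later in life, was at 0.0, 0.0, 0.121, and 0.0795 CPM at 6 h and at 0.336, 0.101, 1.6, and 0.165 CPM at 5 d, and its level at 5 d was decided by replicate 3. It was called higher with all libraries and missed the adjusted p without any of replicates 1, 2, and 4 of 6 h or replicate 3 of 5 d.

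Genes of the presynaptic release machinery shifted upward as a list by a small amount. Of 29 genes, 9 were higher and 1 was lower, with a median log2 fold change of 0.353, and of the 17 without an overlap, 5 were higher and 1 was lower, with a median of 0.277. Of the 4 with no opposite-strand neighbour, 1 was higher and 0 were lower in a refit of such genes. Slc17a7 (n), the vesicular glutamate transporter VGLUT1, was at 27.9 to 46.0 CPM at 6 h and at 91.4 to 145 CPM at 5 d, a log2 fold change of 1.76 (SE 0.19, edgeR adjusted p = 3.24e-05). The vesicle proteins Syp (o), Syn2 (o), and Sv2b (o) had log2 fold changes of 1.61, 1.64, and 2.02, with 16.8%, 1.28%, and 0.561% of their exon bases overlapped. Syt1, the calcium sensor of fast release, rose from 511 to 534 CPM to 755 to 811 CPM. Cplx1 (n), a complexin that clamps fusion, was the gene that fell, from 255 to 280 CPM to 160 to 209 CPM, a log2 fold change of -0.57, which was -0.47 without replicate 3 of 5 d and then missed the fold threshold.

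Of 29 genes of the postsynaptic density, 10 were higher and 0 were lower, with a median log2 fold change of 0.317, and of the 20 without an overlap, 6 were higher, with a median of 0.199. Camk2a, the alpha subunit of the calcium/calmodulin-dependent kinase of excitatory synapses, was at 90.8, 93.8, 93.2, and 105 CPM at 6 h and at 304, 340, 261, and 295 CPM at 5 d. The groups were far apart, with a log2 fold change of 1.63 (SE 0.102, edgeR adjusted p = 1.14e-06). The beta subunit Camk2b (n) was at 608 to 662 CPM at 6 h and at 562 to 759 CPM at 5 d, a log2 fold change of 0.05. Nrgn (n), or neurogranin, which binds calmodulin in spines, rose from at most 40.7 CPM at 6 h to as much as 209 CPM at 5 d, a log2 fold change of 2.21 (SE 0.205) without overlap of the groups. Ddn (o), or dendrin, and Lrrtm4 (o), an adhesion protein that binds heparan sulfate proteoglycans, had log2 fold changes of 2.9 and 2.02, with 4.68% and 25.1% of their exon bases overlapped.

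Of 27 genes of glutamate receptors and their auxiliary subunits, 10 were higher and 1 was lower, with a median log2 fold change of 0.394. Of the 20 without an overlap, 7 were higher and 0 were lower. The AMPA receptor subunit Gria3 was at 43.7, 37.5, 44.0, and 37.8 CPM at 6 h and at 93.6, 78.5, 79.2, and 82.8 CPM at 5 d, a log2 fold change of 1.01 (SE 0.089). Gria2, the subunit that makes the channel impermeable to calcium, rose by less, with a log2 fold change of 0.55 (SE 0.0855), which was 0.48 without replicate 2 of 5 d and then missed the fold threshold. Cacng3 (n), an AMPA receptor auxiliary subunit, and Grm5 (n), a metabotropic receptor coupled to Gq, had log2 fold changes of 1.26 and 1.13. Grin1 (o), the obligatory NMDA receptor subunit, and Grm7 (o), a presynaptic metabotropic receptor, had log2 fold changes of 1.17 and 1.55. Grm2 (o), another presynaptic metabotropic receptor, was the gene that fell, with a log2 fold change of -1.22.

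The inhibitory receptors and chloride transporters formed the neuronal list with the largest share of higher genes. Of 20 genes, 12 were higher and 0 were lower, with a median log2 fold change of 0.681, and of the 16 without an overlap, 10 were higher, with a median of 0.767. Slc12a5 (n), the chloride exporter KCC2, was at 81.2, 72.4, 103, and 87.4 CPM at 6 h and at 238, 231, 206, and 234 CPM at 5 d, a log2 fold change of 1.38 (SE 0.116, edgeR adjusted p = 7.53e-06). Slc12a2, the chloride importer NKCC1, was at 48.9 to 60.7 CPM at 6 h and at 52.9 to 66.8 CPM at 5 d, and its log2 fold change of 0.14 did not pass the test. The glycine receptor beta subunit Glrb was at 64.4, 68.9, 68.7, and 69.9 CPM at 6 h and at 153, 135, 145, and 134 CPM at 5 d. The GABA-A receptor subunits Gabra3 (n) and Gabrg1 had log2 fold changes of 1.25 and 1.47, while Gabra2, which is abundant before birth, was at 74.9 to 97.9 CPM at 6 h and at 82.8 to 88.3 CPM at 5 d.

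Of 38 voltage-gated channel genes, 13 were higher and 1 was lower, with a median log2 fold change of 0.319, and of the 28 without an overlap, 12 were higher and 0 were lower. Leaving out 1 library gave 9 to 18 higher genes. Scn2a, the sodium channel of the early axon initial segment, was at 146, 146, 156, and 144 CPM at 6 h and at 301, 333, 246, and 311 CPM at 5 d, a log2 fold change of 0.99 (SE 0.11). The auxiliary sodium channel subunit Scn2b (n) had a log2 fold change of 0.8, and the potassium channel genes Kcnc4 and Kcnc2, whose channels repolarise fast action potentials, had log2 fold changes of 1.47 and 0.81. Cacna1e, an R-type calcium channel, had one of 1.05. Cacna1h (o), a T-type calcium channel, fell with a log2 fold change of -0.55, which was -0.4 without replicate 3 of 5 d and then missed the fold threshold.

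**Figure D3:**
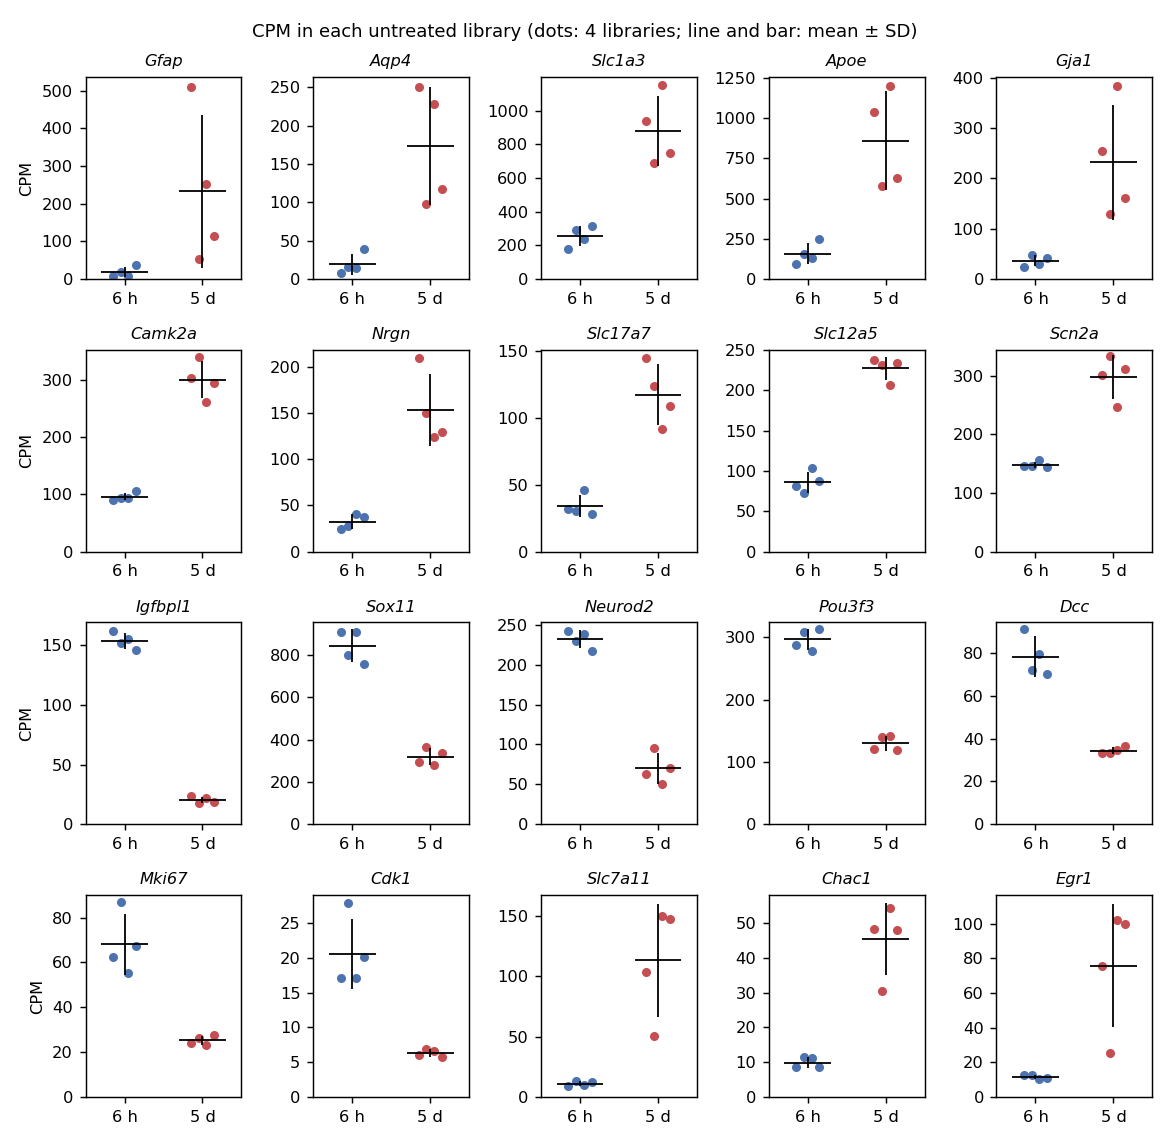
CPM (y axes, each from 0) of 20 genes in the 4 untreated libraries at 6 h (blue) and the 4 at 5 d (red), with the replicates 1 to 4 from left to right in each group, the mean as a line, and the SD as a bar. In all 20 genes the groups do not overlap, as in 9208 of the 18461 genes tested. In Gfap (n) and Egr1 the highest and lowest 5 d libraries have the largest ratio, from 52.2 to 511 CPM and from 25.5 to 102 CPM.

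The genes of immature neurons fell. Of 24 genes, 0 were higher and 15 were lower, with a median log2 fold change of -0.705, and of the 21 without an overlap, 15 were lower, with a median of -0.82. Sox11, a factor of newborn neurons, was at 910, 801, 908, and 755 CPM at 6 h and at 293, 367, 280, and 339 CPM at 5 d, a log2 fold change of -1.42 (SE 0.125, edgeR adjusted p = 9.65e-06). Neurod2, a factor of excitatory neuron differentiation, was at 242, 230, 239, and 217 CPM and at 63.5, 95.9, 50, and 70.8 CPM, a log2 fold change of -1.74. Igfbpl1 (n), a secreted protein of young neurons, was at 146 to 162 CPM at 6 h and at 17.9 to 23.3 CPM at 5 d. The actin-binding Tmsb10 (n) and the MARCKS-like protein Marcksl1 (n) had log2 fold changes of -1.18 and -1.02, and Tuba1a, the main alpha-tubulin of growing axons, had one of -1.07. Dcx, or doublecortin, had a log2 fold change of -0.52 that lay at the fold threshold and missed it in 8 of the alternatives. Not all growth genes fell, since Gap43, a growth cone protein, was at 916 to 974 CPM at 6 h and at 761 to 1140 CPM at 5 d, and Stmn2, a tubulin-binding protein of growth cones, at 1520 to 1590 CPM and at 1320 to 1920 CPM.

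The axon guidance genes were more often lower than higher. Of 40 genes, 4 were higher and 15 were lower, with a median log2 fold change of -0.266, and of the 34 without an overlap, 4 were higher and 13 were lower. Dcc, the netrin receptor that attracts growing axons, was at 91.3, 72.2, 79.5, and 70 CPM at 6 h and at 33.3, 33.2, 34.5, and 36.4 CPM at 5 d, a log2 fold change of -1.22 (SE 0.0945). The semaphorin Sema3c, the ephrin Efna2, and the Slit receptor Robo2 (n) fell with log2 fold changes of -1.05, -1.0, and -0.91. Unc5d, a netrin receptor of the repulsive family, rose from 56.4, 56.8, 61.4, and 55.8 CPM to 137, 136, 139, and 158 CPM, a log2 fold change of 1.28 (SE 0.0742). Unc5b, of the same family, the ligand Slit3 (n), and Robo3 (n) had log2 fold changes of 0.87, 0.79, and 1.1, with Robo3 (n) under 1 CPM in all libraries.

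Factors of cortical layer identity also fell. Of 20 genes, 1 was higher and 11 were lower, with a median log2 fold change of -0.543, and of the 15 without an overlap, 0 were higher and 8 were lower. The POU factors of upper-layer neurons Pou3f3 (n) and Pou3f2 (n) had log2 fold changes of -1.22 and -0.95, the homeobox factor Cux1 (o) had one of -0.7, and Bcl11b, or CTIP2, a factor of deep-layer projection neurons, one of -0.87. Tbr1, of the early-born deep layer, was at 141, 116, 150, and 118 CPM at 6 h and at 72.3, 91.3, 57.3, and 76.1 CPM at 5 d. Both upper-layer and deep-layer factors were thus among the lower genes. Bcl6 (o), a repressor, was the gene that was higher, with a log2 fold change of 0.51 that missed the threshold without any of 4 libraries.

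Of 24 neuronal splicing factors and BAF chromatin subunits, 2 were higher and 9 were lower, with a median log2 fold change of -0.38, and of the 17 without an overlap, 1 was higher and 6 were lower. Without replicate 3 of 5 d, 5 of the 24 were lower. Of the 8 with no opposite-strand neighbour, 1 was higher and 1 was lower in a refit of such genes. The ATPase Smarca4 (n), the neuron-specific subunits Ss18l1 (n) and Actl6b, and the precursor subunit Actl6a (o) fell by similar amounts, with log2 fold changes of -0.77, -0.67, -0.64, and -0.63. Celf4, an RNA-binding protein of excitatory neurons, had a log2 fold change of 0.58. Phf10 (o), a precursor subunit, had one of 1.4 with 9.56% of its exon bases overlapped. Of 16 cytoskeletal genes of the axon, 4 were higher and 3 were lower, with a median of 0.00153, and of the 9 without an overlap, 2 were higher and 1 was lower. The neurofilament genes Nefm (o) and Ina (o) and the tubulin Tubb4a fell with log2 fold changes of -1.37, -0.63, and -0.62, the last of which was -0.46 without replicate 3 of 5 d and then missed the fold threshold, and the microtubule-binding Map1a (o) and Tppp (n) had log2 fold changes of 0.76 and 0.89.

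The genes of DNA replication and mitosis showed the most uniform change. Of 34 genes, 0 were higher and 33 were lower, with a median log2 fold change of -1.35, and of the 27 without an overlap, 26 were lower, with a median of -1.4, and of the 16 with no opposite-strand neighbour, 15 were lower. The count was 33 without any 1 of the 8 libraries. Mki67 (n), a protein of all dividing cells, was at 62.5, 86.8, 55.2, and 67.5 CPM at 6 h and at 24.1, 26.1, 23.2, and 27.4 CPM at 5 d, and Top2a (n), a topoisomerase of S phase and mitosis, at 79.3, 126, 75.2, and 95.7 CPM and at 30.9, 31.2, 32.3, and 29.7 CPM. The mitotic kinase Cdk1 had a log2 fold change of -1.73 (SE 0.152, edgeR adjusted p = 9.71e-06), the helicase subunit Mcm5 one of -1.54, the ubiquitin-conjugating enzyme Ube2c (o) one of -2.31, and Pcna (n), the sliding clamp, one of -0.67. The cyclin Ccne1, at 5.24 to 7.53 CPM at 6 h and at 4.46 to 6.03 CPM at 5 d, was the gene that was not called. Replicate 2 of 6 h had the highest summed level, at 1154 CPM against 724.3 to 851.2 CPM in the other 6 h libraries and 358.6 to 421.3 CPM at 5 d.

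To show the region upstream of genes that fell together, the RefSeq promoters (GRCm38.p6, 250 bases before to 50 bases after the start) of the list were searched on both strands for the E2F words TTTCCCGC and TTTGGCGC. Of the 34 genes, 29 had a promoter in the table, and 7 of their 31 promoters (22.6%) held a word, against 514 of all 32851 promoters (1.56%). As a property of the genes put in the list, this share does not depend on their levels in these libraries. The promoters of Mcm5 (chr8:75109259-75109558, plus strand) and Mcm6 (chr1:128359656-128359955, minus strand) are shown because they are subunits of the same helicase complex with, respectively, 1 and 2 matches, in capitals. A match is a description of the sequence only.
Mcm5: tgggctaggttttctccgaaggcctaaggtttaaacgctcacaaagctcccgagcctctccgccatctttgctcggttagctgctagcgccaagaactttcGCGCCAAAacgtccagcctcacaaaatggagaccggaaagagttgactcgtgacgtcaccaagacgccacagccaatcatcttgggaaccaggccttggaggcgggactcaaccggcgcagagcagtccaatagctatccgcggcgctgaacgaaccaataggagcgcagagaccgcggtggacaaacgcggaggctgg
Mcm6: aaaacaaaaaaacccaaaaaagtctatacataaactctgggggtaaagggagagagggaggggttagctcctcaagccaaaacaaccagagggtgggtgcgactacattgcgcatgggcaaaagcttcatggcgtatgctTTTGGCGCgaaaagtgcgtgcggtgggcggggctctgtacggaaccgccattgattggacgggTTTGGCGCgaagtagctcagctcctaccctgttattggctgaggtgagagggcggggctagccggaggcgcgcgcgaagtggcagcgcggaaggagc

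Of 15 radial glia and progenitor markers, which share 3 members with other lists, 1 was higher and 6 were lower, with a median log2 fold change of -0.117, and of the 10 without an overlap, 0 were higher and 4 were lower. The 3 shared members, Mki67 (n), Top2a (n), and Tnc (o), were all among the 6 lower ones. Without replicate 4 of 5 d, 2 of the 15 were higher. Of the 7 with no opposite-strand neighbour, 0 were higher and 2 were lower in a refit of such genes. Neurog2, the proneural factor of cortical precursors, was at 5.44, 6.42, 5.61, and 5.75 CPM at 6 h and at 0.79, 1.31, 0.899, and 0.892 CPM at 5 d, a log2 fold change of -2.6 (SE 0.185). Nes, or nestin, an intermediate filament of precursors, had a log2 fold change of -0.67. Hopx (o), a marker of outer radial glia and later of astrocytes, had one of 1.72 with 27.2% of its exon bases overlapped. Of the 15 tested heterochronic and growth genes, 2 were higher and 7 were lower, and of the 5 without an overlap, 0 and 3. The mRNA-binding proteins of fetal tissue Igf2bp1 (o), Igf2bp2, and Igf2bp3 (o) had log2 fold changes of -2.25, -0.92, and -1.03, the chromatin protein Hmga1 (o) one of -0.71, and the growth factor-induced Myc (n) one of -0.87. The cyclin Ccnd1 (o) and the let-7 pathway gene Trim71 (o) had log2 fold changes of 0.93 and 0.7, and Trim71 (o), which stayed under 3 CPM, missed the threshold without replicate 2 of 6 h or without replicate 1 or 4 of 5 d, at 0.56 to 0.69. Of 16 imprinted genes, 4 were higher and 3 were lower, and of the 8 without an overlap, 2 were higher and 1 was lower. The paternally expressed zinc finger gene Peg3 (n) and the noncoding RNA Meg3 (o) had log2 fold changes of 0.87 and 1.41, and the growth inhibitor Cdkn1c (o) and the noncoding RNA H19 (o) had log2 fold changes of -1.61 and -1.6.

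The genes of the integrated stress response rose. Of 20 genes, 17 were higher and 0 were lower, with a median log2 fold change of 1.43, and of the 18 without an overlap, 15 were higher, with a median of 1.43, and of the 6 with no opposite-strand neighbour, 4 were higher. The count was 17 without any 1 of the 8 libraries. Slc7a11 (n), the cystine/glutamate exchanger, was at 8.89, 12.9, 9.6, and 12.2 CPM at 6 h and at 104, 50.9, 150, and 148 CPM at 5 d, a log2 fold change of 3.33 (SE 0.295, edgeR adjusted p = 1e-05). Chac1, a glutathione-degrading enzyme, was at 8.56, 11.4, 11.1, and 8.51 CPM at 6 h and at 48.4, 30.4, 54.4, and 48.1 CPM at 5 d. Trib3 (n), a pseudokinase that inhibits ATF4, was at 0.981 to 1.96 CPM and at 6.78 to 16.9 CPM. In these 3 genes, replicate 2 was the lowest library of 5 d and still lay above all libraries of 6 h. Atf4 (n) itself had a log2 fold change of 0.87 (SE 0.0726), and the other transcription factors of the pathway, Ddit3 (o), or CHOP, and Atf3 (n), had log2 fold changes of 1.8 and 2.44. The mitochondrial folate enzyme Mthfd2 (n) had one of 1.43 and asparagine synthetase, Asns, one of 0.82. Fgf21 (n), a secreted hormone, was at most at 0.0795 CPM at 6 h and at 0.454, 0.121, 0.41, and 0.364 CPM at 5 d.

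The promoters of this list were searched for the amino acid response word TGATGNAA on both strands, at which ATF4 can bind together with C/EBP proteins. Of the 20 genes, 18 had a promoter in the table, and 8 of their 20 promoters (40.0%) held the word, against 1304 of all 32851 promoters (3.97%). This share is a property of the genes put in the list and does not depend on their levels in these libraries. A match is a description of the sequence only, and binding was not tested. The promoters of Chac1 (chr2:119350992-119351291, plus strand), Slc7a11 (n) (chr3:50443564-50443863, minus strand), and Atf3 (n) (chr1:191183284-191183583, minus strand), which are among the members with the largest changes, are shown with the matches in capitals, and the TTGCATCA in them is the word on the other strand. Ddit3 (o) and Mthfd2 (n) held no match in this window.
Chac1: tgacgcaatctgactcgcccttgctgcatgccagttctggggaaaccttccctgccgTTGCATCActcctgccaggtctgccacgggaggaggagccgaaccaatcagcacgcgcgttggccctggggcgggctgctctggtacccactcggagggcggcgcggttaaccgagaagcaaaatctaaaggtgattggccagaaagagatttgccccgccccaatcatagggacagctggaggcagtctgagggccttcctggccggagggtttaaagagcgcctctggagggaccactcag
Slc7a11: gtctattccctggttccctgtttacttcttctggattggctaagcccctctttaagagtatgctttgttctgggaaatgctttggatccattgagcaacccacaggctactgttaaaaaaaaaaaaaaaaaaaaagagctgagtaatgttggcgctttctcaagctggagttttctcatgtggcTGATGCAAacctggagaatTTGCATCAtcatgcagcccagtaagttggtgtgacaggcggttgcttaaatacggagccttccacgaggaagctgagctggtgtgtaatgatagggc
Atf3: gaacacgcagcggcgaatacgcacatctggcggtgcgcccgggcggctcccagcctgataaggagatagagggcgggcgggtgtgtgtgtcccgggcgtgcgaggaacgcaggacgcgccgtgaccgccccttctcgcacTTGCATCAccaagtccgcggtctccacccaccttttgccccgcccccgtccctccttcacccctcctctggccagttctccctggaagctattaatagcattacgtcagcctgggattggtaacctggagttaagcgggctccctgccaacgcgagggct

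The libraries of 5 d did not move as 1 block. The summed level of the 20 stress response genes was 2808, 2036, 3045, and 2793 CPM in replicates 1 to 4 of 5 d, against 1161 to 1567 CPM at 6 h, and replicate 2, the lowest, also had the lowest summed astrocyte markers and the highest summed genes of immature neurons, at 29140 CPM against 19360 to 25580 CPM. The 24 genes of cholesterol synthesis and its regulation, which neurons and astrocytes both use, summed to 6680 to 7004 CPM at 6 h and to 4847, 7845, 3841, and 6136 CPM in replicates 1 to 4 of 5 d. Of them, 0 were higher and 3 were lower, and of the 20 without an overlap, 0 and 2. Without replicate 2 of 5 d, 15 of the 24 were lower, and without replicate 3 of 5 d, 1 was. The 3 genes were Pmvk, Fdft1 (o), and Acat2 (n), with log2 fold changes of -0.56, -0.81, and -0.71. Without replicate 3 of 5 d, Pmvk and Acat2 (n) missed the fold threshold at -0.47 and -0.49, and Acat2 (n) missed the adjusted p without replicate 1 of either time or replicate 3 of 6 h, at -0.68 to -0.65.

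**Figure D4:**
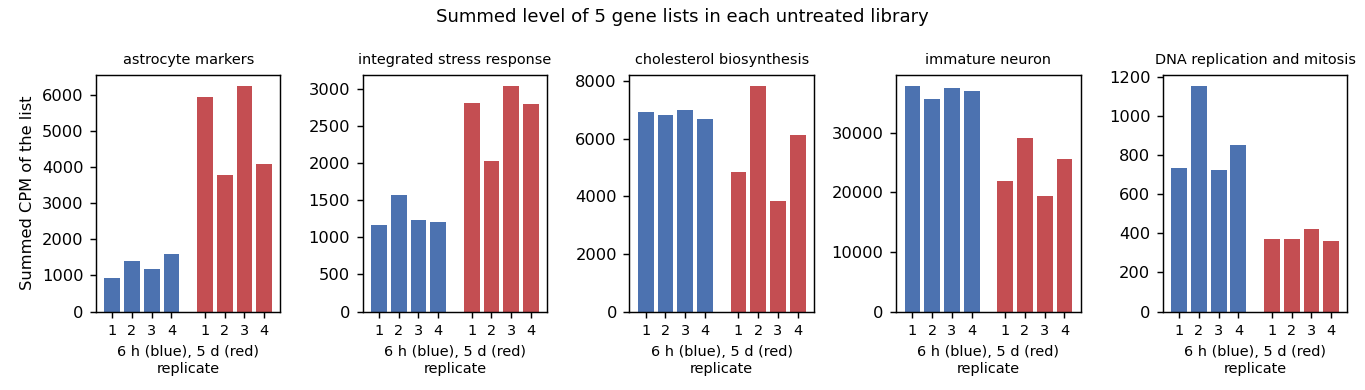
Summed CPM of 5 gene lists (bars, y axes each from 0) in each untreated library (x axes), with replicates 1 to 4 of 6 h in blue and of 5 d in red. Astrocyte and stress response genes are higher in every 5 d library, replication genes lower in every one, and cholesterol genes range from 3841 to 7845 CPM at 5 d, around the 6680 to 7004 CPM of 6 h.

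Of 20 genes of the p53 pathway and apoptosis, 7 were higher and 1 was lower, with a median log2 fold change of 0.0199, and of the 19 without an overlap, 7 were higher and 1 was lower. The count of lower genes was 0 without replicate 3 of 5 d and 2 without replicate 2 of 5 d or replicate 2 or 4 of 6 h. The higher ones included the cell cycle inhibitor Cdkn1a, the p53 targets Zmat3, Ccng1, and Eda2r, and the BH3-only protein Hrk (n) that acts in neurons, with log2 fold changes of 0.61, 0.61, 1.07, 1.81, and 1.49. Hrk (n) was at 58.2, 56.4, 64.1, and 48.3 CPM at 6 h and at 168, 130, 185, and 171 CPM at 5 d. Of 12 NRF2 targets, 1 of which is Slc7a11 (n), 5 were higher and 1 was lower, and of the 10 without an overlap, 5 and 0. Srxn1, which repairs oxidised peroxiredoxins, Gsta4 (n), a glutathione transferase, and Hmox1, or heme oxygenase, had log2 fold changes of 1.46, 1.48, and 1.25, with overlapping groups for Hmox1. Nqo1, a standard NRF2 target, was at 1.53 to 3.34 CPM at 6 h and at 2.88 to 5.01 CPM at 5 d and was not called, and G6pdx (o), of the pentose phosphate pathway, fell with a log2 fold change of -0.57.

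Of 28 genes of glycolysis and the hypoxia response, 7 were higher and 1 was lower, with a median log2 fold change of 0.103, and of the 16 without an overlap, 4 were higher and 1 was lower, with a median of 0.00418. Leaving out 1 library gave 5 to 10 higher genes. Bnip3 (o), a mitophagy receptor induced by hypoxia, had a log2 fold change of 1.86 with 22.3% of its exon bases overlapped, and Gpi1 (o), a glycolytic enzyme, one of 1.0. Vegfa, the angiogenic factor, rose from 38.7 to 44.6 CPM to 56.8 to 78.8 CPM. Slc16a3 (n), the lactate exporter MCT4, fell from at most 1.09 CPM to 0.248 to 0.547 CPM, a log2 fold change of -1.24. Of the 8 mitochondrially encoded genes tested, 0 were higher and 7 were lower, and of the 5 without an overlap, 0 and 4. Each of the 8 had an opposite-strand neighbour. The largest change, that of mt-Nd6 (o), is described above. The genes of the other strand mt-Nd1 (n), mt-Co1 (o), and mt-Nd2 (n), all of the respiratory chain, had log2 fold changes of -0.96, -0.89, and -0.8, and mt-Nd1 (n) was at 3340 to 3590 CPM at 6 h and at 2080, 2040, 1700, and 1410 CPM at 5 d.

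The activity-regulated genes, which calcium entry induces within minutes to hours, moved in both directions. Of 29 genes, 9 were higher and 8 were lower, with a median log2 fold change of -0.165, and of the 25 without an overlap, 8 were higher and 6 were lower. Egr1, an immediate early zinc finger factor, was at 12.9, 12.6, 10.6, and 10.9 CPM at 6 h and at 75.4, 25.5, 102, and 100 CPM at 5 d, a log2 fold change of 2.65 (SE 0.347). The related factors Egr2 (n) and Egr3 had log2 fold changes of 2.57 and 1.72, Arc, which acts on AMPA receptor removal, one of 1.77, and the pentraxin Nptx1 (n) one of 0.91. Fos was at 18.8, 11.9, 4.98, and 9.12 CPM at 6 h and at 30.2, 5.33, 36.6, and 28.2 CPM at 5 d and was not called. Replicate 2 was the lowest library of 5 d for Egr1, Arc, and Fos. Among the lower genes, Nr4a2, an orphan nuclear receptor, was at 60.7, 51.3, 46.5, and 43.9 CPM at 6 h and at 16.6, 12.5, 23.3, and 15.7 CPM at 5 d, and Inhba, an activin subunit, at 20.5 to 29.0 CPM and at 2.54 to 7.92 CPM. The feedback genes Ier5 and Sik1 had log2 fold changes of -1.27 and -0.83. Bdnf (o), the neurotrophin, had one of -0.74, with overlapping groups, and missed the threshold without replicate 1 or 2 of 6 h or replicate 4 of 5 d, and Npas4, a factor induced by depolarisation alone, was at 4.74 to 15.9 CPM and at 3.62 to 15.1 CPM.

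Of 21 neuropeptides and granins, 4 were higher and 7 were lower, with a median log2 fold change of 0.0496, and of the 20 without an overlap, 4 and 7. Vip, of a class of interneurons, was at 0.265, 0.454, 0.121, and 0.636 CPM at 6 h and at 8.89, 2.67, 7.94, and 3.65 CPM at 5 d, a log2 fold change of 3.9 (SE 0.491). Nts, or neurotensin, and the tachykinins Tac2 and Tac1 had log2 fold changes of 1.36, 2.86, and 0.76, with overlapping groups for Tac1, which missed the threshold without any of 5 libraries. Cort (n), or cortistatin, was at 8.16, 6.72, 4.98, and 9.43 CPM at 6 h and at 1.26, 0.784, 2.33, and 1.02 CPM at 5 d. The related peptide Sst had a log2 fold change of -0.8, Adcyap1, or PACAP, one of -0.8, and the secreted Vgf (n) one of -1.3.

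Interferon-stimulated genes were low throughout, and of 21 genes, 1 was higher and 8 were lower, with a median log2 fold change of -0.585, and of the 17 without an overlap, 0 and 6. The count of higher genes was 3 without replicate 2 of 5 d and 2 without replicate 3 of 6 h. Leaving out 1 library gave 7 to 12 lower genes, with 12 without replicate 3 of 6 h. With the replicate number as a term, 6 were lower, and with at least 10 counts in every library, 4 of 13 were. Isg15 (n), a ubiquitin-like modifier, was at 1.29, 0.908, 0.815, and 1.62 CPM at 6 h and at 0.202, 0.201, 0.195, and 0.182 CPM at 5 d. Irf7 (o), the factor that amplifies the response, Usp18 (o), which ends it, and Rtp4 (n) had log2 fold changes of -2.77, -2.55, and -2.08. Cxcl10 (o), a chemokine that other signals also induce, was at 0.785 to 1.96 CPM at 6 h and at 1.35 to 6.59 CPM at 5 d, a log2 fold change of 1.69 with overlapping groups. Among the genes of large change without an opposite-strand neighbour, which were chosen after values were seen, the chemokines Ccl3 and Ccl4 and the itaconate-producing enzyme Acod1, all genes of activated myeloid cells, were also lower. Ccl3 was at 4.51, 4.22, 3.68, and 7.13 CPM at 6 h and at 0.622, 0.603, 0.704, and 0.43 CPM at 5 d. The log2 fold changes of Ccl4 and Acod1 were -3.65 and -3.54. Cxcl1, a chemokine from the same choice of genes, was higher instead, at 0.0302 to 0.265 CPM at 6 h and at 0.402 to 4.92 CPM at 5 d. Its log2 fold change was 3.76 (SE 0.831). Of the 15 microglia markers, 1 was higher and 0 were lower.

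The extracellular matrix list changed in composition. Of the 13 tested genes of the perineuronal net and its matrix, 4 were higher and 5 were lower, and of the 9 without an overlap, 4 were higher and 2 were lower. The count of lower genes was 3 in place of 5 without replicate 1 or replicate 4 of either time, and 4 without replicate 2 or 3 of either time. In a refit without overlapped genes, 5 of the 9 were higher and 1 was lower. Of the 2 with no opposite-strand neighbour, 2 were higher and 0 were lower in a refit of such genes. The link protein Hapln1 (n) was at 2.39, 7.79, 3.2, and 7.58 CPM at 6 h and at 36.7, 43.0, 39.9, and 38.8 CPM at 5 d, a log2 fold change of 2.89 (SE 0.3, edgeR adjusted p = 2.52e-05). The proteoglycans Bcan, or brevican, Ptprz1, and Cspg5 (n) had log2 fold changes of 1.72, 0.88, and 0.52, the last of which missed the fold threshold without replicate 1 of 6 h or of 5 d, at 0.47 and 0.48. Versican, Vcan (n), tenascin C, Tnc (o), and the hyaluronan synthase Has3 (o) fell with log2 fold changes of -0.77, -0.9, and -0.99. Acan (n), or aggrecan, had a log2 fold change of -0.82 with overlapping groups, and it missed the threshold in 11 of the alternatives.

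Of 5 sex-linked genes, which report the mix of embryos in a culture, 1 was higher, and of the 4 without an overlap, 1. Without replicate 3 of 6 h, 3 were higher. Xist (o) was at 882, 670, 314, and 526 CPM at 6 h and at 357, 521, 531, and 887 CPM at 5 d, with overlapping groups. The Y-linked Ddx3y was at 18.9, 15, 26.5, and 22.3 CPM at 6 h and at 52.7, 35.9, 53.6, and 34.0 CPM at 5 d, a log2 fold change of 1.05, while the other 3 Y-linked genes were not called, with log2 fold changes from 0.11 to 0.57.

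To compare levels between related genes within a library, which does not depend on library scaling, the log2 ratio of a later-acting to an earlier-acting gene was taken for 22 pairs in CPM per kb of exon. In 13 pairs the ratios of the 2 times did not overlap in a way that gave the smallest exact two-sided permutation p that 4 against 4 libraries allow, 0.0286, which was 0.0484 after adjustment over the pairs. With a prior of 0.5 in place of 0.1 CPM, 12 pairs reached that p, and since the adjusted p was then 0.0524, 0 pairs passed. The ratio was higher at 5 d in 8 of the 13 pairs and lower in 5. Camk2a over Camk2b (n) rose from -2.44 ± 0.0694 to -0.86 ± 0.0409 (SD, n = 4), the chloride exporter Slc12a5 (n) over the importer Slc12a2 from 1.2 ± 0.346 to 2.44 ± 0.211, and Slc17a7 (n) over Slc17a6, the vesicular glutamate transporter of early neurons, from -0.411 ± 0.292 to 0.96 ± 0.418. In other pairs the ratio went the other way: Kcnc1 (n) over Kcnc4 fell from 1.66 ± 0.183 to 0.16 ± 0.0611 and Cplx1 (n) over Cplx2 from 0.324 ± 0.0889 to -0.57 ± 0.0343. The ratio of Grin2a to Grin2b (o) was lower at 5 d, at -4.77 ± 0.161 against -4.22 ± 0.153, with an overlap in Grin2b (o). Of the 15 pairs without an overlapped gene, 9 were among the 13, 7 of them higher and 2 lower at 5 d, and the median change over all 22 pairs was 0.084.

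Cultures exposed to an oligoribonucleotide gave the same comparison in 24 other libraries, in which 4510 of 20073 genes (22.5%) were higher at 5 d and 3679 (18.3%) were lower, by the mean over the 3 exposures. Of the 6219 genes called in untreated cultures, 6205 were tested in exposed cultures, and 5527 were called there in the same direction and 4 in the opposite one. Since the exposed libraries have the same batch years and the same split by strand, this is no replication of the effect of time free of batch. Of the astrocyte markers, 12 of 15 were higher in exposed cultures, of the stress response genes 18 of 20, and of the inhibitory receptor genes 14 of 20. Of the replication genes, 33 of 34 were lower, with a median log2 fold change of -1.77 against -1.35 in untreated cultures, and of the immature neuron genes 14 of 24. Mki67 (n) had a log2 fold change of -2.34 and Pdgfra (o) one of -2.44, against -1.45 and -1.08 in untreated cultures.

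In a fit of all 32 libraries, the change from 6 h to 5 d in untreated cultures was set against the mean change in exposed cultures. The difference passed in 0 of 20425 genes (0.0%) with edgeR and in 0 with DESeq2, with a smallest adjusted p of 0.409 in edgeR, and 912 genes had an unadjusted p under 0.05. The untreated and exposed libraries share experiment batches within each time, namely 4 of 7 batches at 6 h and 3 of 6 at 5 d, and 1 batch at 5 d held only an untreated library. With the experiment batch as a term, which was added after seeing the data, the difference passed in 2 of 20425 genes (0.00979%) with edgeR, and 1379 genes had an unadjusted p under 0.05. Pdgfra (o), which was at 39.2 to 91.1 CPM at 6 h and at 24.6 to 35.7 CPM at 5 d in untreated cultures, had a log2 change that was higher by 1.52 there than in exposed cultures (SE 0.164, edgeR adjusted p = 0.000183), so that it fell by less. Kdr, an endothelial receptor of the growth factor VEGF, was at 1.84 to 7.69 CPM at 6 h and at 3.78 to 8.82 CPM at 5 d, and its change was higher by 1.08 (SE 0.138, edgeR adjusted p = 0.0012), with a log2 fold change of 0.49 in untreated and of -0.33 in exposed cultures, neither of which was called. Both passed without each of the 8 untreated libraries in turn, with differences of 1.35 to 1.62 for Pdgfra (o) and of 0.99 to 1.14 for Kdr, whose edgeR adjusted p was 0.0493 without replicate 1 of 5 d, and 2 to 4 genes passed in all, with 4 genes without replicate 3 or 4 of 6 h. The study lists Pdgfra (o) and Kdr among the genes lowered at 5 d by each of the 3 oligoribonucleotides. For the other genes, a p that misses the threshold does not show that the changes were alike.

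**Figure D5:**
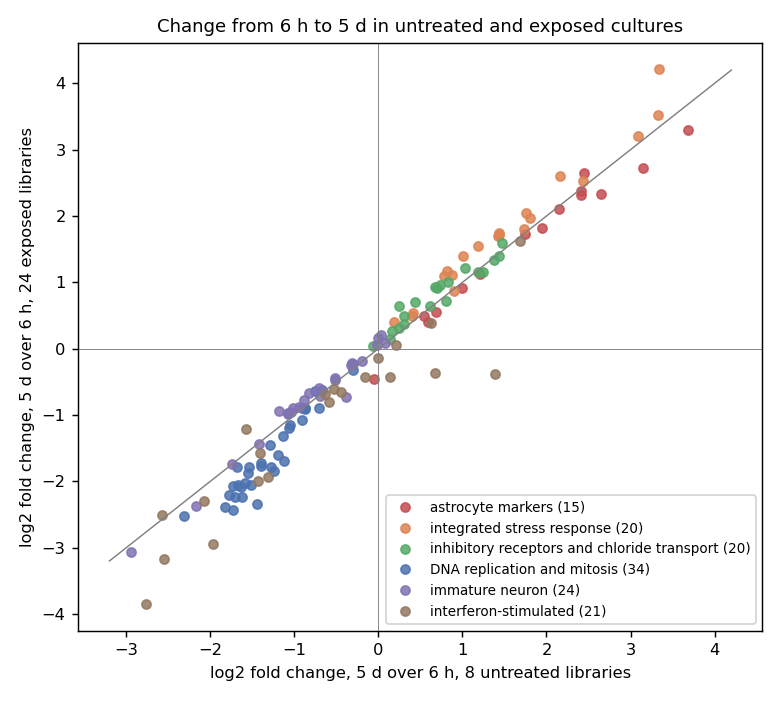
Log2 fold change of 5 d over 6 h in the 8 untreated libraries (x axis) and, as the mean over 3 exposures, in the 24 exposed libraries (y axis) for the members of 6 lists that were tested in both; each point is a gene and the diagonal marks equal change. Replication and mitosis genes (blue) lie mostly below the diagonal, with medians of -1.35 and -1.77, and astrocyte genes (red) at the upper right, with medians of 1.95 and 1.82.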

How the data were processed

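Poly(A)-selected RNA of mouse cortical cultures was sequenced in 32 libraries. Raw counts per gene were deposited for all of them. Per the study's methods, the authors made these counts from single-end reads of a stranded library kit with STAR on GRCm38 and with featureCounts set to 1 strand, and the submitters' notes name the same tools. No normalisation was applied before deposition.

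The 8 untreated libraries were compared with edgeR 4.0.16 (R 4.3.3): TMM scaling, quasi-likelihood test, a minimum of 5 counts in 3 or more libraries, Benjamini-Hochberg adjustment over all genes tested, and calls at an adjusted p under 0.05 with an absolute log2 fold change over 0.5. The exposed libraries were fitted alike, with exposure as a term, and the difference between untreated and exposed cultures in all 32 libraries. CPM are counts scaled to the library total. Ratios of gene pairs were tested with an exact two-sided permutation test. The edgeR and DESeq2 fits were tested on simulated counts with known changes, and the other steps were not. Opposite-strand genes and gene positions came from a GRCm38 annotation, and promoters and their build, GRCm38.p6, from RefSeq.

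Within each of the 32 gene lists, up to 4 genes per direction with the smallest p were named, plus members whose role is described, and some members are counted but not reported here. Over all genes, those with the smallest p and the largest fold were considered, and the choice of genes without an opposite-strand neighbour was added after values were seen. Members and lists were chosen with earlier results of these data known. The alternatives were DESeq2 1.42.0, other scalings, filters, and thresholds, thinned counts, a replicate block, the experiment batch as a term, and leaving out each library.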

Additional observations from a re-analysis of the deposited data

Results flagged for a closer look

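In 17 of the 402 groups of 4 libraries tested, 4.23% of them, the highest or lowest library stood apart from the other 3 by Dixon's criterion at the 95% level, which chance alone meets in about 1 of 20 groups. The flags fell on all 8 libraries, with 1 to 3 for each.

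At 6 h, the library that stood apart was the lowest for Slc1a2 (o) at 136 CPM in replicate 1, Stmn2 at 1520 CPM and Trim71 (o) at 0.584 CPM in replicate 2, Inhba at 20.5 CPM in replicate 3, and Phf10 (o) at 49.8 CPM and Phf21b at 23.1 CPM in replicate 4. It was the highest for Sik1 at 61.8 CPM and Plekhg2 at 48.8 CPM in replicate 1, Gabra3 (n) at 56.6 CPM in replicate 3, and the matrix metalloproteinase Mmp3 at 0.0265 CPM in replicate 4, where the other libraries were at 0.

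At 5 d, it was the highest for Tagln (o) at 5.7 CPM and Mog (n) at 0.0168 CPM in replicate 1, Tmem102 at 0.0201 CPM in replicate 2, Pvalb at 1.6 CPM in replicate 3, and Unc5d at 158 CPM in replicate 4. It was the lowest for Map1a (o) at 327 CPM and Sirpa at 263 CPM in replicate 3. For Mog (n) and Tmem102, the other libraries of 5 d were at 0.

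The change from 6 h to 5 d differed between untreated and exposed cultures with the experiment batch as a term, by 1.52 on the log2 scale for Pdgfra (o) and by 1.08 for Kdr, while 0 genes passed without that term.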

How the results depend on the processing

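The counts of 3558 higher and 2661 lower genes in untreated cultures stayed within 1.5 times under DESeq2 (3539 and 2583), other scalings, no low-count filter, a minimum of 10 counts in each library, thinned counts, and the fit of all 32 libraries, and with library totals only they were 3693 and 2459. Leaving out each library gave 3252 to 3636 higher and 2436 to 2697 lower genes. A minimum log2 fold change of 1 gave 2013 and 1150, and no minimum gave 5190 lower genes. Refitted without overlapped genes, 2326 were higher and 1741 lower, and among genes with no opposite-strand neighbour 1173 and 872, both chosen after seeing the data and with fewer genes tested. In exposed cultures, 8189 genes changed, 4782 with that minimum of 10 counts and 14408 without a minimum fold. The difference between untreated and exposed cultures passed in 0 genes under the other alternatives run and in 2 with the experiment batch as a term, chosen after seeing the data. Of the gene pairs, 13 passed, and 0 with a prior of 0.5 CPM. The median change of their ratios was 0.045 to 0.134 when each library was left out.

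The replicate numbers did not pair the untreated samples: the deviations of same-numbered libraries from their group means correlated at -0.288 to -0.13, and 0 of the 4 libraries of 6 h correlated best with the 5 d library of the same number. With the replicate block, 3229 genes were higher and 2518 were lower.

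Of 187 called genes among 201 of the genes named or plotted, 125 kept their call under every alternative that tested them, 48 missed it only at a minimum log2 fold change of 1, and 14 missed it elsewhere, as given beside them or by single libraries. Genes that an alternative left out were not judged under it, as overlapped genes in the refits without them and low genes under stricter filters. Of the genes not called, 5 were called under at least 1 alternative. The 18 values of opposite sign were all of genes not called. Gjb6 was at 0.25 with thinned counts, and Gap43 at -0.02 with the replicate block. Without single libraries, the log2 fold change of Gjb6 ran from -0.72 to 0.34, of Gap43 from -0.12 to 0.14, of Npas4 from -0.19 to 0.41, of Xist (o) from -0.38 to 0.18, of Camk2b (n) from -0.04 to 0.16, of Gabra2 from -0.13 to 0.02, and of Stmn2 from -0.08 to 0.16. The cause of these changes was not tested. The fewer counts at 6 h limit low genes there the most, and genes near 3 counts have no reliable fold.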

Other observations

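Among protein-coding genes with no opposite-strand neighbour, the direction of the calls varied with the genomic span of the gene. Of the 1260 genes of up to 10 kb, 15% were higher and 19.7% were lower at 5 d, and of the 586 genes of 100 to 300 kb, 28.3% were higher and 10.8% were lower. Of the 119 genes over 300 kb, 26.9% were higher and 12.6% were lower. Span is shared with gene function and base composition, and the part of each was not tested.

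Further genes without an opposite-strand neighbour, chosen after values were seen, changed by a large fold from low levels. Fam107a, an actin-bundling protein of stress and glia, and Angptl4, a secreted inhibitor of lipoprotein lipase, were higher at 5 d, and Tmem102 was lower.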
